A study of Mus musculus with 14 samples.

Results

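The genes described here are a set of 9 markers and regulators of the trophoblast, the outer lineage of the conceptus that builds the placenta: Syna, Synb, Gcm1, Dlx3, Zfp36l3, Ascl2, Tpbpa, Hand1 and Plac1. They were chosen by name, and a gene was taken where the platform annotation gave it a probe in the authors' series matrix. That held for 7 of the 9, with 8 probes in all, against 10478 genes tested in the whole series. Gcm1 and Tpbpa had none there and were not analysed here, so the syncytial class held Syna and Synb, the labyrinth class Dlx3 and Zfp36l3, and the spongiotrophoblast class Ascl2 alone, beside Hand1 of giant cells and Plac1 of several trophoblast types.

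The mouse placenta forms 2 main fetal zones. In the labyrinth, trophoblast cells fuse into syncytial layers across which mother and fetus exchange nutrients and gases, and this fusion needs the syncytins, envelope proteins of ancient retroviruses that became mouse genes. Between the labyrinth and the decidua lies the junctional zone, which holds spongiotrophoblast and glycogen cells, with polyploid giant cells at the border with maternal tissue. Syna is made in the first and Synb in the second syncytial layer, and Gcm1, a transcription factor, starts syncytial differentiation. Dlx3 is a homeobox factor required for labyrinth development. Zfp36l3 is a rodent zinc finger protein of labyrinth trophoblast and yolk sac that binds messenger RNA. Ascl2 is a basic helix-loop-helix factor required for spongiotrophoblast, and Tpbpa is that layer's classical marker. Hand1 is a basic helix-loop-helix factor that drives giant cell differentiation and is also made in the embryonic heart. Plac1 is an X-linked gene of several trophoblast cell types.

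Uterine RNA of C57BL/6 mice aged 8 weeks was measured on 14 Illumina bead arrays: 5 of non-pregnant mice (NP), 5 of pregnant mice given PBS (E12_PBS) and 4 of pregnant mice given PC61 (E12_PC61). The pregnant mice were sampled at day 12 from fertilization. PC61, which binds CD25, was given to deplete regulatory T cells, and the labels state neither a dose nor a time for it. Numbered replicates are not said to be separate animals. The p-values therefore cover the spread between these arrays, whether biological or technical. Each gene's spread was estimated from all 3 groups together, although it was unequal. For Synb the SD was 0.04 in NP, 0.28 in E12_PBS and 2.10 in E12_PC61. An SE or p-value between 2 groups thus also reflects the spread of the third.

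Smooth muscle genes, which mark the uterine wall, were above background for at least 8 of 9 genes on every array. The embryonic globin Hbb-y had a log2 level of 13.91 to 14.88 on the E12_PC61 arrays and of 14.67 to 14.89 on the E12_PBS arrays, and was below background on every NP array. Between 16607 and 19729 probes were detected per array. Pairwise correlations over all genes were 0.971 to 0.987 among E12_PBS arrays and 0.861 to 0.98 among E12_PC61 arrays. Results that rest on this group are therefore given array by array. In bulk tissue, fewer trophoblast cells and less RNA per trophoblast cell cannot be told apart.

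The comparison of E12_PBS with NP arrays gives the signal that pregnancy adds for each gene. All 7 genes were higher in E12_PBS: none was above background, meaning a detection p under 0.01, on any of the 5 NP arrays, and all were above it on all 5 E12_PBS arrays. Levels are given throughout as normalized log2 intensities after background correction, on which an undetected probe reads about 4 to 5.

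Syna had log2 levels of 7.19, 6.46, 7.25, 7.06 and 6.61 on E12_PBS arrays 1 to 5 and of 4.28 to 4.38 on the NP arrays. Synb read 8.51, 7.99, 8.68, 8.48 and 8.16 on the same E12_PBS arrays and 4.30 to 4.40 on the NP arrays. Both syncytin probes thus separated the groups without overlap, and they ranked the 5 E12_PBS arrays in the same order, with array 2 lowest and array 3 highest. Dlx3 read 10.21, 9.78, 9.81, 9.42 and 9.67 against 4.51 to 5.45 on the NP arrays. Zfp36l3 read 9.58, 9.02, 9.28, 9.04 and 9.02 on its brighter probe, against 4.28 to 4.69. Its other probe lay at 8.88 to 9.30 on the E12_PBS arrays and at 4.30 to 4.63 on the NP arrays, so the 2 probes gave the same picture.

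Plac1 was at 11.09, 11.06, 11.20, 10.86 and 10.92 on the E12_PBS arrays, against 4.25 to 4.73 on the NP arrays. Hand1 was dim, at 6.97, 6.44, 6.53, 6.12 and 6.82, against 4.23 to 4.55. Ascl2, the spongiotrophoblast factor, was dim too, at 6.25, 6.24, 6.30, 6.21 and 6.10, against 4.52 to 5.08. The E12_PBS arrays did not overlap the NP arrays for any of the 7, as for 41.2% of all genes, and the spread among E12_PBS arrays ran from an SD of 0.07 for Ascl2 to 0.36 for Syna.

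**Figure D1:**
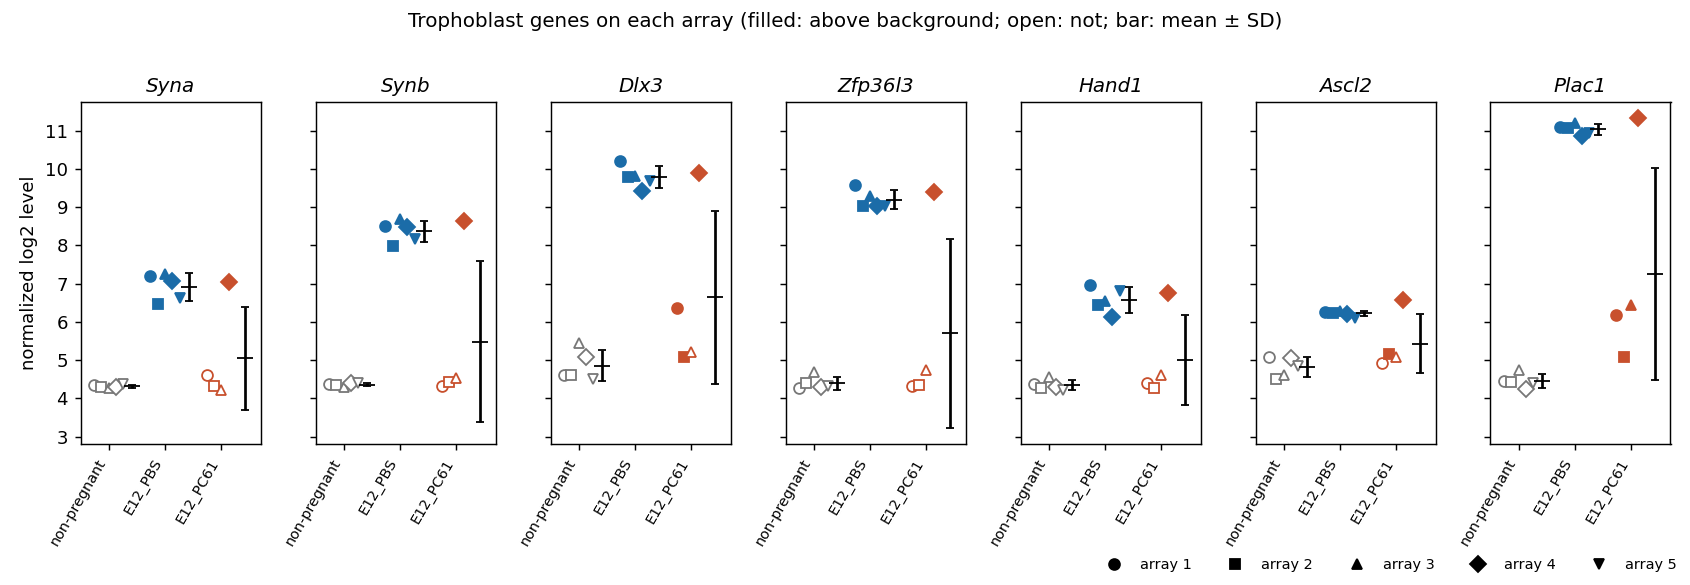
Normalized log2 level of the 7 genes on each array, by group. Each point is 1 array, its shape gives the array number, and it is filled where the probe was above background. The black bar is the mean ± SD of the group. On E12_PC61 arrays 1 to 3 the points lie near the NP level or below the E12_PBS level, and on array 4 they lie within or above the E12_PBS range.

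Because every NP array was below background, the size of each rise has only a lower bound. Plac1 was at least 57.4-fold higher (limma adjusted p = 2.09e-05), Dlx3 at least 24.2-fold (adjusted p = 5.21e-05) and Zfp36l3 at least 16.04-fold (adjusted p = 0.000118). Synb was at least 9.06-fold higher (adjusted p = 0.000143) and Syna at least 3.32-fold (adjusted p = 0.000187). Hand1 was at least 2.62-fold higher (adjusted p = 0.00025) and Ascl2 at least 2.05-fold (adjusted p = 0.000533). In all 7 of 7 genes rose, against 46.6% of all genes called in either direction, 22.9% called higher and 23.7% called lower. With median scaling in place of quantile normalization, 2269 of all genes were called higher and 1196 lower, as the median over all genes moved to 0.16, and 7 of 7 members still rose. The members' median log2 difference was 4.00, or 3.18 with each gene at its bound, against -0.03 over all genes. The genes passed the filter on dim probes through the pregnant arrays, where they are bright, so this count is a description and no support for a common change.

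Promoter sequences are shown for 4 of the 7 genes, as examples of a syncytial, a labyrinth, a spongiotrophoblast and a broadly trophoblastic gene that were detected together on the same arrays. Of the 9 genes, 6 matched RefSeq's table of promoters, each running from 250 bases before to 50 after a gene's start. Both starts that the table holds for Plac1 are given, since its probe does not tell them apart. The sequences are 5′ to 3′ on the strand of the gene, from build GRCm38.p6, and capitals mark a motif match.
Syna, chr5:134560122-134560421, strand -: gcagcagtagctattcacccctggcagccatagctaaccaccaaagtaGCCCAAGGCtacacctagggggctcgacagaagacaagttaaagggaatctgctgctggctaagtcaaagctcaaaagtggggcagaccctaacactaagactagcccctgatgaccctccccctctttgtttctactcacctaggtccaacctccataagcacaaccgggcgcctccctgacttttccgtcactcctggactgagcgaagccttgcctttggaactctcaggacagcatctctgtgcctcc
Zfp36l3, chrX:53776345-53776644, strand -: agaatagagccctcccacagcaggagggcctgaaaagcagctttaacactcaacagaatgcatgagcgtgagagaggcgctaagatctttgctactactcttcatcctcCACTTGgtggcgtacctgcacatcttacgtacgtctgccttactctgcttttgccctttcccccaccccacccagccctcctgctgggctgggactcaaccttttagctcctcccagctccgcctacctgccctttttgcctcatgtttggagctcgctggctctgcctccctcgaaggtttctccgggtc
Ascl2, chr7:142969215-142969514, strand -: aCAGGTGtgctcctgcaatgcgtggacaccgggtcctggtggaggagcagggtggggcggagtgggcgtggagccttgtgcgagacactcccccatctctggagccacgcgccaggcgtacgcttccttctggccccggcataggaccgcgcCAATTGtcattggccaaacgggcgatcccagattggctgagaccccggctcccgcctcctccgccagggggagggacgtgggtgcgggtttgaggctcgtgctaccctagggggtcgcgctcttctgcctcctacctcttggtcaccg
Plac1, chrX:53114356-53114655, strand -: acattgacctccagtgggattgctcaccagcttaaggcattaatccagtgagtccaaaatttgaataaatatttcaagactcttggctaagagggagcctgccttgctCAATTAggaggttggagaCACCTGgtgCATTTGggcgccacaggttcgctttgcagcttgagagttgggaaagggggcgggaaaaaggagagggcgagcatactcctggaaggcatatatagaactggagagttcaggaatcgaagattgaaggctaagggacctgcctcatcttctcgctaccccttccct
Plac1, chrX:53240061-53240360, strand -: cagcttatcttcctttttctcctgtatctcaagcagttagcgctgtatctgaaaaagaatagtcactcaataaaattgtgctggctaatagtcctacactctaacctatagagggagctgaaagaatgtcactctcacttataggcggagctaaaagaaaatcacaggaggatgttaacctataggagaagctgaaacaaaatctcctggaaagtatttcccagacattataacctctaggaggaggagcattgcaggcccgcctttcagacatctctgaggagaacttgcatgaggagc
Matches were searched on both strands for the E-box CANNTG, the core bound by basic helix-loop-helix factors such as Ascl2 and Hand1, for the AP-2 motif GCCNNNGGC, for the Gcm motif ATGCGGGT and for the homeobox motif TAATTG of Dlx factors. The Syna promoter held 1 AP-2 match and no E-box, the Zfp36l3 promoter 1 E-box, and the Ascl2 promoter 2 E-boxes. Of the Plac1 starts, the one at chrX:53114356-53114655 held 2 E-boxes and 1 Dlx match and the other held none of the 4 motifs. No window held the Gcm motif. Over 32817 promoters of this length, 72.3% held an E-box, 16.6% the AP-2 motif, 8% the Dlx motif and 0.256% the Gcm motif. These matches describe letters in a window and say nothing of binding.

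The comparison stated in the series design set E12_PC61 against E12_PBS. All 7 genes had a lower mean in the E12_PC61 group, where 48.5% of all genes did, and none passed the test. On E12_PC61 arrays 1 to 3 the 7 genes were below every E12_PBS array and mostly near the level of non-pregnant uterus. Plac1 on all 3, Dlx3 on arrays 1 and 2 and Ascl2 on array 2 were above background. Plac1 on arrays 1 and 3 (6.18 and 6.44) and Dlx3 on array 1 (6.37) lay clearly above their highest NP levels, 4.73 and 5.45. On array 4 the 7 genes were as high as in E12_PBS. The mean differences therefore describe no single array of the group.

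Syna read 4.60, 4.33, 4.21 and 7.04 on E12_PC61 arrays 1 to 4, against 6.46 to 7.25 in E12_PBS. Synb read 4.33, 4.43, 4.53 and 8.64, against 7.99 to 8.68. Both syncytins were above background on array 4 and on no other array of the group. Against the E12_PBS mean, Synb was at least 7.96-fold, 9.70-fold and 8.92-fold lower on arrays 1, 2 and 3. For Syna, which is dimmer, the bounds were 2.91-fold, 3.55-fold and 3.27-fold.

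Dlx3 read 6.37, 5.09, 5.20 and 9.90 on E12_PC61 arrays 1 to 4, against 9.42 to 10.21 in E12_PBS. It was above background on arrays 1 and 2, where it was 10.6-fold and 25.8-fold below the E12_PBS mean, and it missed the threshold on array 3, at least 23.8-fold below. Detection p was 0.00107, 0.00962 and 0.0107 on these arrays, and 0.0107 and 0.0128 on NP arrays 4 and 3, and the level on arrays 2 and 3 was below the 5.45 of NP array 3. Zfp36l3 read 4.31, 4.34, 4.74 and 9.40, against 9.02 to 9.58. It was undetected on arrays 1 to 3, at least 14.1-fold, 17.2-fold and 15.8-fold below the E12_PBS mean, and its other probe read 4.54, 4.29, 4.67 and 9.13. The 2 labyrinth genes thus differed on array 1, where Dlx3 lay above its highest NP level and Zfp36l3 was undetected. On array 2 neither gene was above its highest NP level, although Dlx3 narrowly passed the detection threshold.

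Plac1 read 6.18, 5.09, 6.44 and 11.33 on E12_PC61 arrays 1 to 4, against 10.86 to 11.20 in E12_PBS. It was the only one of the 7 genes detected on all 4 arrays, at 28.9-fold, 61.3-fold and 24.1-fold below the E12_PBS mean on arrays 1 to 3. Its detection on array 2 was narrow (detection p 0.00962), so the fold there is close to what background allows. On array 4 Plac1 lay above every E12_PBS array. Hand1 read 4.39, 4.28, 4.61 and 6.76, against 6.12 to 6.97, and was detected on array 4 alone. Ascl2 read 4.92, 5.16, 5.09 and 6.57, against 6.10 to 6.30. It was detected on arrays 2 and 4, narrowly on array 2 (detection p 0.00748), and its array 4 also lay above the E12_PBS range. Of the 7 genes, 2 were detected on array 1, 3 on array 2, 1 on array 3 and 7 on array 4.

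In limma's test over all genes the log2 fold change of Zfp36l3 was -3.49 (SE 0.77, 95% interval -5.14 to -1.84, adjusted p = 0.154). Plac1 had -3.77 (SE 0.86), Dlx3 -3.14 (SE 0.72), Synb -2.88 (SE 0.66), Syna -1.87 (SE 0.44) and Hand1 -1.56 (SE 0.39), each with an adjusted p of 0.154. Ascl2 had the smallest difference, -0.79 (SE 0.27, adjusted p = 0.211). The count of genes called was 0 of 7, as it was 0% of all genes, 0 of 10478. At an unadjusted p under 0.05 there were 7 of 7, against 15.5% of all genes, and 8.15% of all genes on the lower side. All 7 met the filter on dim probes through the E12_PBS arrays alone, where they are bright. This count is therefore a description and no support for a common fall. The median log2 fold change of the 7 was -2.88 against 0.01 over all genes. The groups overlapped for all 7 genes, and 1.81% of all genes did not overlap.

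Array 4 decided these calls. Without it, limma called 7 of 7 genes lower, from -5.13 for Plac1 (adjusted p = 1.5e-08) to -1.16 for Ascl2 (adjusted p = 0.000214), while 1529 of all genes were called. That array was the one that went the other way, so leaving it out favours these calls. With array weights, which gave arrays 1 and 4 of the group 0.166 and 0.173, 7 of 7 passed, as did 4027 of the 10478 genes. With median scaling 6 of 7 passed, all but Ascl2, and 303 of all genes did, all of them lower, with the median over all genes at -0.30.

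**Figure D2:**
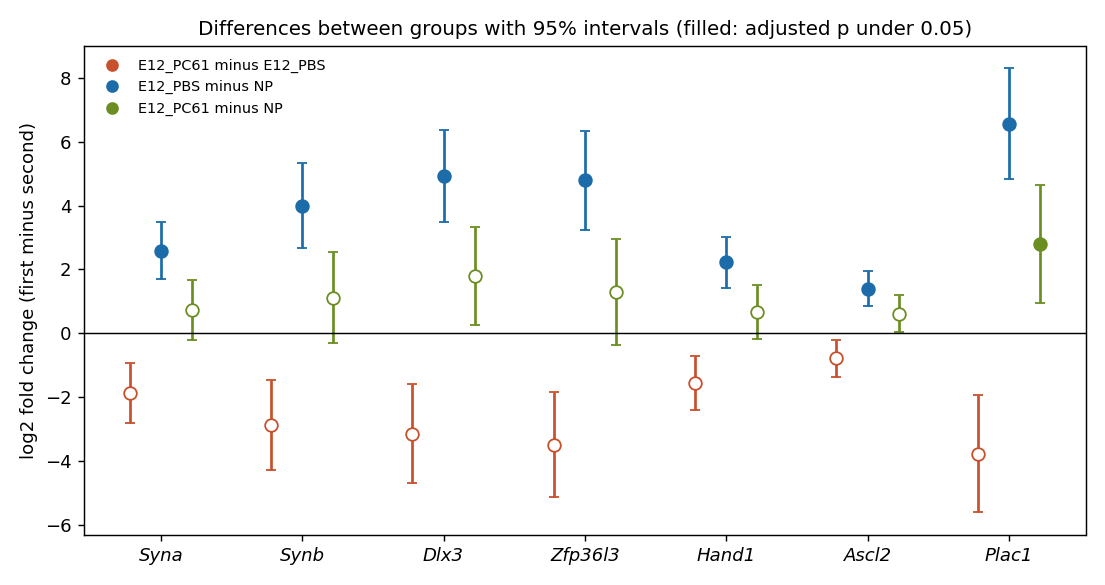
Log2 fold change of each gene in the 3 comparisons, with its 95% interval from limma, unadjusted for the number of genes. Filled points had an adjusted p under 0.05, which all 7 genes reached between E12_PBS and NP, Plac1 alone between E12_PC61 and NP, and none between E12_PC61 and E12_PBS.

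The comparison of E12_PC61 with NP arrays shows how much trophoblast signal was left. Plac1 rose, at least 4.21-fold with a log2 fold change of 2.80 (SE 0.86, adjusted p = 0.0251), and its groups did not overlap, as for 21.5% of all genes. The other 6 genes did not pass, with differences of 1.78 for Dlx3 (95% interval 0.25 to 3.32, adjusted p = 0.0781), 1.30 for Zfp36l3 (-0.35 to 2.95, 0.23), 1.12 for Synb (-0.30 to 2.53, 0.227), 0.73 for Syna (-0.22 to 1.67, 0.242), 0.67 for Hand1 (-0.18 to 1.51, 0.228) and 0.61 for Ascl2 (0.03 to 1.19, 0.109). The count of 1 of 7 stands against 28.3% of all genes called and 13.7% called higher. The median was 1.12, against -0.02 over all genes. Syna and Hand1 had no usable bound. With the other 5 genes at theirs the median was 0.67, which is the unbounded value of Hand1. At an unadjusted p under 0.05 there were 3 of 7, against 39.9% of all genes.

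Without E12_PC61 array 4 the differences from NP were 0.06 for Syna, 0.07 for Synb and Zfp36l3, 0.08 for Hand1, 0.23 for Ascl2 and 0.70 for Dlx3, and none of these passed. Plac1 stood at 1.44 (adjusted p = 0.000713), and it lay above its highest NP level of 4.73 on the 3 other arrays too. On array 2, at 5.09, it passed the detection threshold only narrowly. Dlx3 passed without array 2 (2.30, adjusted p = 0.0303) and without array 3 (2.26, adjusted p = 0.0337). The Plac1 call was lost in 3 alternatives: with the series matrix values (1.47, adjusted p = 0.103), without background correction (1.53, adjusted p = 0.0958) and when only the 2 groups compared entered the fit (2.80, adjusted p = 0.0874).

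Set side by side, the syncytial, labyrinth and spongiotrophoblast classes differed in the size of the difference from E12_PBS and not in which arrays showed it. On E12_PC61 arrays 1, 2 and 3 the syncytial mean lay at -3.17, -3.26 and -3.27 against the E12_PBS mean, the labyrinth mean at -4.14, -4.77 and -4.51, and Ascl2 at -1.30, -1.06 and -1.13. On array 4 they lay at 0.20, 0.16 and 0.35. The difference of syncytial minus spongiotrophoblast log2 fold changes was -1.59 over the group, and -1.88, -2.20, -2.14 and -0.15 on arrays 1 to 4. Each probe can fall no further than background, however, and the NP arrays, which hold no placenta, gave -2.14 to -1.61 for the same difference. Arrays 1 and 3 lay within that NP range and array 2 just beyond it. Since Ascl2 had little room to fall from its lower E12_PBS level, these probes do not rank the classes.

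Among 18 tested genes of syncytial and labyrinth trophoblast, a list that includes 4 of the members, 14 rose and 2 fell between E12_PBS and NP. The median was 2.02. Without the 4 members 10 of 14 rose and the median was 1.21. The shares over all genes, here and for the lists below, were 22.9% called higher and 23.7% called lower. Phlda2, an imprinted gene that limits placental growth, was at least 85.0-fold higher and Peg10, a retrotransposon-derived placental gene, at least 10.8-fold higher. Tfap2c, an AP-2 factor of trophoblast, rose by 5.73 on the log2 scale and Pparg, a nuclear receptor needed for labyrinth formation, by 3.44. Hsd11b2, which inactivates glucocorticoids, had a log2 fold change of -2.59 and fell (adjusted p = 4.28e-05), as did Ly6e, the receptor of syncytin-A, at -1.30 (adjusted p = 0.00241). Both of these last genes were detected on all NP arrays.

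Between E12_PC61 and E12_PBS 0 of these 18 genes passed. Of them, 12 had an unadjusted p under 0.05, against 15.5% of all genes, and 15 were lower, against 48.5%. The list median was -1.46, and -0.93 without the 4 members. Pparg read 5.07, 5.33, 7.34 and 11.09 on E12_PC61 arrays 1 to 4, against 10.39 to 10.94 in E12_PBS. Tfap2c read 6.67, 7.92, 9.07 and 12.46, against 11.86 to 12.19. Phlda2 read 8.98, 5.13, 7.12 and 11.92, against 11.42 to 11.90, and Peg10 6.54, 4.38, 5.48 and 9.16, against 8.05 to 9.39. All 4 genes were lower on arrays 1 to 3 than on any E12_PBS array, but in a different order of arrays: Pparg and Tfap2c were lowest on array 1, Phlda2 and Peg10 on array 2. Their log2 fold changes were -3.44, -3.03, -3.31 and -2.23, with adjusted p of 0.154, 0.154, 0.156 and 0.171. Ly6e, at 0.78 (adjusted p = 0.264), and Hsd11b2, at 0.65 (adjusted p = 0.398), were on the other side of zero.

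Of 8 tested spongiotrophoblast and glycogen cell genes, Ascl2 included, 8 rose between E12_PBS and NP, with a median of 2.96. Prl8a8 and Prl7b1, placental prolactin-family genes, were at least 100.1-fold and 89.0-fold higher. Cdkn1c, an imprinted cell cycle inhibitor, rose by 3.94, and Pcdh12, a protocadherin of glycogen trophoblast, by 1.98 on the log2 scale. Between E12_PC61 and E12_PBS 0 passed. Here 8 of 8 were lower with an unadjusted p under 0.05, against 8.15% of all genes. The median was -1.35, with or without Ascl2. Tpbpb, a close relative of Tpbpa, read 4.42, 4.40, 8.33 and 12.29 on E12_PC61 arrays 1 to 4, against 10.37 to 12.05 in E12_PBS. Prl8a8 read 4.49, 4.42, 8.39 and 12.46, against 11.31 to 12.33, and Prl7b1 4.26, 5.92, 8.26 and 12.38, against 10.99 to 11.98. Flt1, a VEGF receptor that spongiotrophoblast and endothelium both make, read 9.24, 9.39, 9.89 and 11.63, against 11.25 to 11.53. Adjusted p-values of these 4 genes were 0.184, 0.156, 0.156 and 0.154.

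Tpbpb, Prl8a8 and Prl7b1 were thus clearly detected on E12_PC61 array 3, on which 6 of the 7 member genes were not. There Tpbpb was 7.17-fold, Prl7b1 10.5-fold and Prl8a8 10.8-fold below the E12_PBS mean, against at least 8.92-fold for Synb, at least 15.8-fold for Zfp36l3 and at least 23.8-fold for Dlx3. Plac1, at 24.1-fold, and Phlda2, at 22.3-fold, were detected and further below. Among labyrinth genes detected there, Tfap2c was 7.96-fold, Peg10 8.80-fold and Pparg 9.91-fold below. Since probes differ in their NP level, the level can also be set on the log2 range from the NP to the E12_PBS mean: Tpbpb kept 57.6%, Prl7b1 53.8% and Prl8a8 52.6% of it, Tfap2c 47.7%, Phlda2 37.1%, Peg10 25.3% and Pparg 3.90%. On this scale Pparg was at about its NP level. The other genes of the spongiotrophoblast list kept less than Tpbpb, Prl7b1 and Prl8a8, from 35.0% for Cdkn1c to -11.3% for Flt1. Of the members, Plac1 kept 30.1%, Ascl2 18.8%, Hand1 12.0%, Zfp36l3 7.09%, Dlx3 7.02%, Synb 4.11% and Syna -4.22%. Over the whole lists, 6 of 8 spongiotrophoblast and 12 of 18 syncytial and labyrinth genes were detected on that array. The NP arrays detected 3 to 4 and 9 to 11 of them. The spongiotrophoblast list mean lay at -2.29 against E12_PBS, where the NP arrays had -4.14 to -3.69. The syncytial and labyrinth list mean lay at -1.88, where the NP arrays had -2.43 to -2.09. Against its NP range the spongiotrophoblast list thus stood higher, with Tpbpb, Prl7b1 and Prl8a8 keeping the most in it. This is 1 array, with no replicate of the pattern and no test.

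Of 8 tested giant cell genes, Hand1 included, 5 rose and 1 fell between E12_PBS and NP, with a median of 1.91. Between E12_PC61 and E12_PBS 0 passed and the median was -0.44. There 3 had an unadjusted p under 0.05, against 15.5% of all genes. Ctsq, a placental cathepsin, read 4.31, 4.44, 9.47 and 13.71 on E12_PC61 arrays 1 to 4, against 12.63 to 13.44 in E12_PBS (adjusted p = 0.156). Prl2c2, proliferin, read 4.27, 7.27, 9.41 and 12.32, against 11.29 to 12.66 (adjusted p = 0.176). Gata3, a trophoblast transcription factor that other tissues share, read 6.26, 9.74, 8.93 and 9.25, against 8.82 to 9.15, and Limk2, a kinase of the actin skeleton, 9.41, 10.57, 10.45 and 10.76, against 10.50 to 10.90. Ctsq and Prl2c2 were detected on array 3, as Tpbpb, Prl8a8 and Prl7b1 were, while Gata3 and Limk2 were far below the E12_PBS range on array 1 alone. The adjusted p-values of Gata3 and Limk2 were 0.683 and 0.364.

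Among 9 tested progenitor genes, 5 rose between E12_PBS and NP, with a median of 0.71. Between E12_PC61 and E12_PBS 0 passed and the median was -0.22. There 2 had an unadjusted p under 0.05, against 15.5% of all genes. Cdx2, a homeobox factor of trophoblast stem cells that the embryo's hindgut and tail also express, read 5.59, 4.58, 5.39 and 8.64 on E12_PC61 arrays 1 to 4, against 8.01 to 8.35 in E12_PBS (adjusted p = 0.154). Esrrb, a nuclear receptor of these stem cells, read 6.79, 6.29, 6.43 and 7.70, against 7.06 to 7.96 (adjusted p = 0.222). It was at least 4.99-fold higher in E12_PBS than in NP (adjusted p = 1.08e-07). Tead4 read 5.92 on array 1 and 8.29 to 8.66 on the other E12_PC61 arrays, against 7.93 to 8.42. Differences of Ets2, Sox2 and Fgfr2, the last a receptor for the growth factor that keeps these stem cells dividing, were small, at -0.31, -0.22 and 0.33 (adjusted p = 0.451, 0.689 and 0.519).

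**Figure D3:**
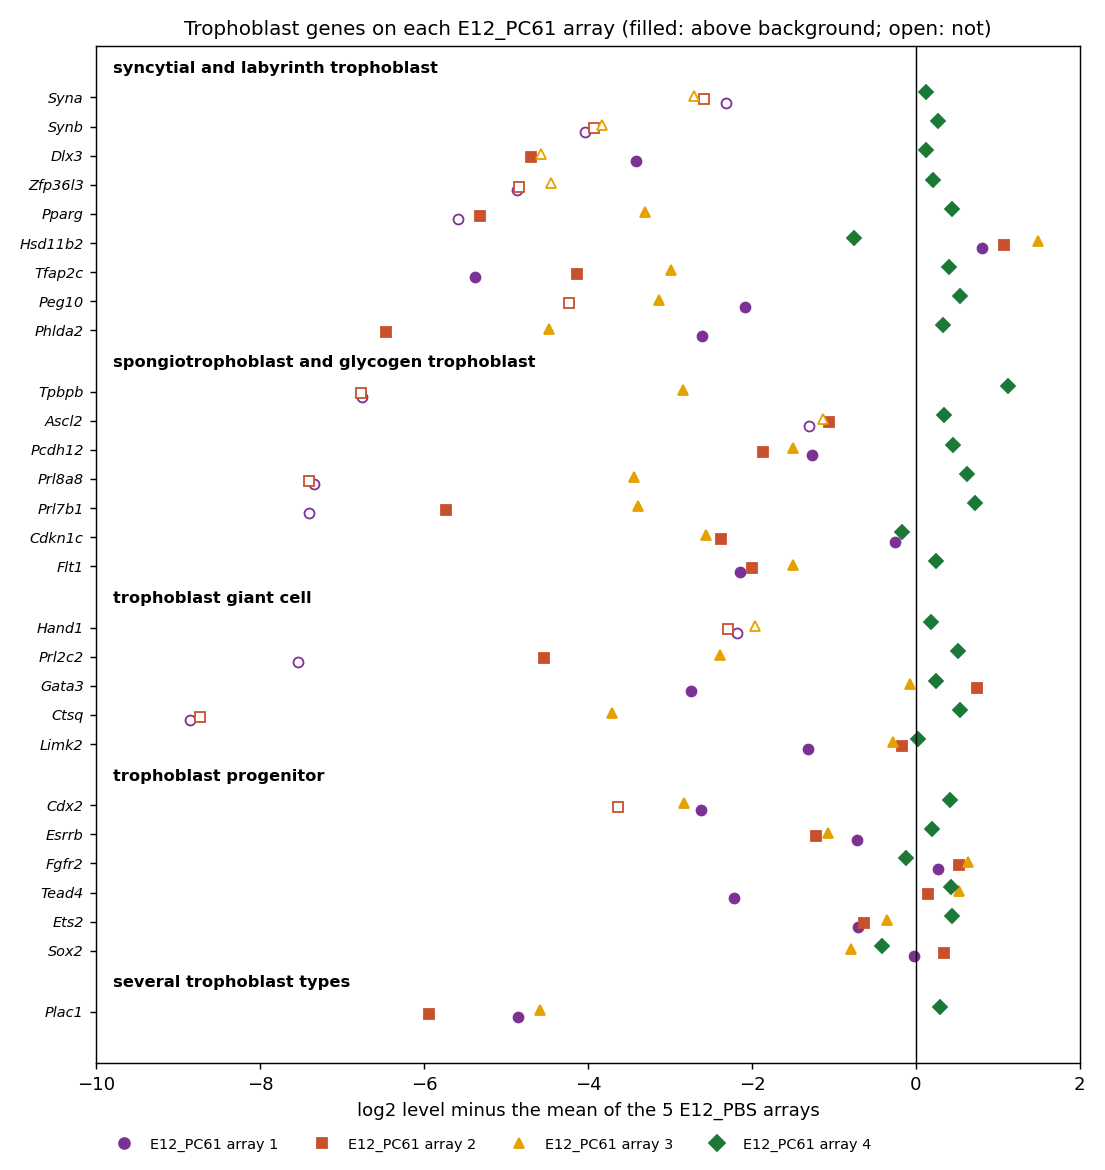
Log2 level on each E12_PC61 array minus the mean of the 5 E12_PBS arrays, for the 7 genes and for the genes named from each trophoblast list. Symbols and colours give the array number, and open symbols were not above background. Array 4 lies near zero or above it for most genes, and on array 3 the filled triangles of Tpbpb, Prl8a8, Prl7b1, Prl2c2 and Ctsq stand between array 4 and arrays 1 and 2.

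The genes whose E12_PC61 pattern lay closest to Synb, by the mean absolute difference over the 4 arrays among 4804 of the genes called between E12_PBS and NP (the members, predicted genes and clone names left out), were Ppp1r3g, a glycogen-targeting phosphatase subunit, at 0.26, Fabp3, a fatty acid binding protein, at 0.38, Rhox12, a reproductive homeobox gene, at 0.43, Sgk2, a kinase, at 0.43 and Irs3, an insulin receptor substrate, at 0.45. On arrays 1 to 4 Ppp1r3g differed from its E12_PBS mean by -3.47, -4.17, -3.94 and 0.39, against -4.03, -3.93, -3.84 and 0.27 for Synb. Of the other members, Dlx3 was at 0.57, Zfp36l3 at 0.61, Plac1 at 0.90, Syna at 1.09, Hand1 at 1.36 and Ascl2 at 2.10 from Synb. The genes closest to Ascl2 were Slc45a4, a solute carrier, at 0.08, St6gal1, a sialyltransferase, and Ackr2, a scavenging chemokine receptor, at 0.09 each, and Dapk2, a kinase, and Mfsd2a, a lipid transporter, at 0.10 each. Ascl2 was added here after its values were seen, in place of Tpbpa. Genes with a like range above background come out close on this measure.

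Levels of other cell types differed between the E12_PC61 arrays too, and their part in the result was not tested. On array 1 the list of uterine NK cell genes had 1 of 6 genes above background and a mean of -4.21 against E12_PBS, where the NP arrays had -3.91 to -3.78. There Gzmd, a granzyme, read 4.84, and Prl8a2, a hormone of the decidua, read 5.85, against 13.94 to 14.33 and 12.78 to 14.02 in E12_PBS. On arrays 2, 3 and 4 Gzmd was at 14.77, 14.69 and 14.17 and Prl8a2 at 13.58, 13.62 and 13.65. The NK cell list mean was 0.94, 0.79 and 0.34 on arrays 2, 3 and 4, against -0.14 to 0.28 in E12_PBS. The decidual list mean was -0.77, 0.78, 0.84 and -0.16 on arrays 1 to 4, against -0.17 to 0.35, with 6 of 8 genes above background on array 1. There Prl8a2 was far below E12_PBS and still above background, while Wnt4 and Hand2, a signal and a transcription factor of uterine stroma, were higher than the E12_PBS mean by 0.80 and 0.91. On array 1 NK cell genes were thus as low as in NP, and on arrays 2 and 3 both list means were above every E12_PBS array.

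Among the E12_PC61 arrays, the mean of embryonic erythroid and yolk sac genes was lowest on array 2. This list mean lay at -0.73 on array 1, -3.37 on array 2, -2.53 on array 3 and 0.25 on array 4. It was -0.17 to 0.27 on the E12_PBS arrays and -7.61 to -7.07 on the NP arrays. Hba-x, an embryonic globin, read 14.11, 12.22, 11.34 and 14.06 on E12_PC61 arrays 1 to 4, against 14.36 to 14.64 in E12_PBS. Of these 10 genes, 9 to 10 were above background on the E12_PC61 arrays and 1 to 4 on the NP arrays. Embryonic globin was therefore measured on all 4 arrays, including the 3 where the syncytins were undetected. Smooth muscle genes lay at 1.36, 1.88, 1.63 and -0.81 on these arrays, against -0.18 to 0.30 in E12_PBS and 1.02 to 1.73 in NP. Array 4, with the highest trophoblast levels, thus had the lowest smooth muscle level of the 14 arrays.

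Between E12_PC61 and E12_PBS 0 genes passed in the decidual list of 8 (median 0.32), the NK cell list of 6 (-0.39), the smooth muscle list of 9 (1.08), the erythroid and yolk sac list of 10 (-1.79), the endothelial list of 6 (0.18) and the uterine epithelial list of 8 (-0.69), as over all genes. Between E12_PBS and NP 10 of 10 erythroid and yolk sac genes and 5 of 6 NK cell genes rose and 5 of 9 smooth muscle genes fell. Decidual genes gave 1 rise and 4 falls, endothelial genes 1 and 3, and uterine epithelial genes 3 and 2. Between E12_PC61 and NP all 10 erythroid and yolk sac genes and 5 NK cell genes rose, and 0 smooth muscle genes changed.

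**Figure D4:**
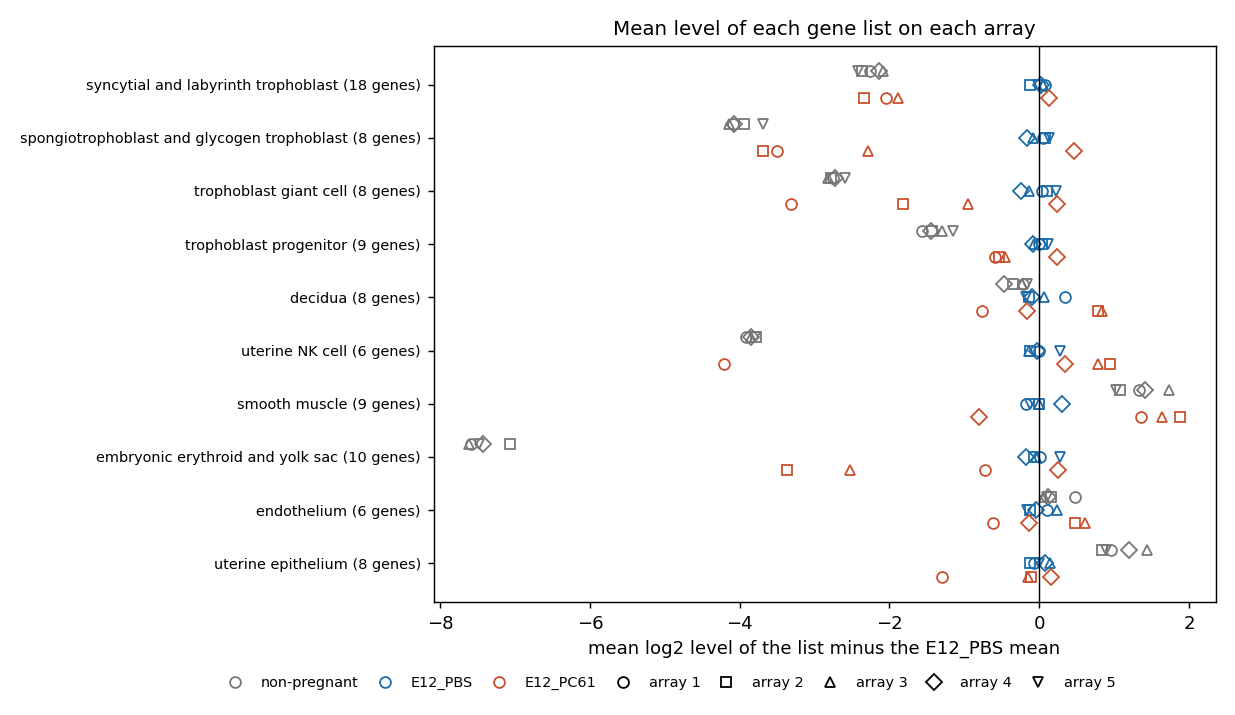
Mean log2 level of each gene list minus its E12_PBS mean, on each of the 14 arrays. Colour gives the group and symbol shape the array number. Every list, those of maternal cell types included, spreads over more than its E12_PBS range on the E12_PC61 arrays. Array 1 alone stands near the NP arrays for NK cell genes.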

How the data were processed

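Uterine RNA of 14 mouse samples was measured on Illumina bead arrays. For 45281 probes, the deposited scanner output lists intensity and detection p-value on every array (per the file headers), not normalized between arrays. A series matrix by the authors covers 16948 probes on a log2 scale, with column medians of 7.96 to 7.99 and the same rank order as the intensities. Its normalization is not given in the sources used here, and it served as an alternative. Neither table names software or a background step. Intensities were processed with neqc in limma 3.58.1 under R 4.3.3 (normexp background from the detection p-values, offset 16, quantile normalization, log2). Probes detected at p under 0.01 on at least 4 arrays were kept (20967). Symbols came from the platform annotation: 15469 probes had 1 gene, 5 several, and 29807 scanner probes were unnamed here. Each gene was its brightest kept probe, which gave 10478 genes. Entrez identifiers of 15463 probes were found in RefSeq's gene table and changed 0 symbols.

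Groups were compared with lmFit and eBayes, 1 mean for each of the 3 groups (11 residual and 3.36 prior degrees of freedom), two-sided, with Benjamini-Hochberg adjustment over all genes and 0.05 as threshold. The test was checked on simulated data in which every group had the spread of the NP and E12_PBS arrays. That check does not cover the wider spread of the E12_PC61 arrays (median SD 0.407, against 0.253 in NP and 0.245 in E12_PBS). An "at least" fold sets the brighter group's mean against the dimmer group's mean of, per array, the higher of the probe's value and the lowest value of a detected probe. The number of arrays limits precision: the median SE of a log2 fold change was 0.227 between E12_PC61 and E12_PBS. No array pair held identical values.

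The members, classes, lists and alternatives were chosen with earlier results of these data known, so no list is independent evidence. Named genes were all members with a matrix probe, up to 4 other genes of lowest p from each trophoblast list in the first 2 comparisons, and the 5 genes closest to Synb. Other list genes are only counted. Ly6e, Tpbpb's comparison on array 3, the marker genes shown by array and the genes closest to Ascl2 were chosen after their values were seen. The alternatives were other values, background, scaling, filters, probe averaging, array weights, a replicate block, fits of 2 groups and leaving out each array. The headers give no chip for an array, so chip was not fitted.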

Additional observations from a re-analysis of the deposited data

Results flagged for a closer look

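In groups of 4 or 5 arrays, a level was looked at again where Dixon's test at 95% set its highest or lowest array apart, which chance does in about 1 of 20 groups. Of 87 levels screened (members, their probes and the named list genes in 3 groups), 10 were set apart, 6 of them on E12_PC61 array 4. These were Syna at 7.04 (other arrays of the group 4.21 to 4.60), Synb at 8.64 (4.33 to 4.53), Zfp36l3 at 9.40 (4.31 to 4.74) and at 9.13 on its other probe (4.29 to 4.67), Ascl2 at 6.57 (4.92 to 5.16) and Hand1 at 6.76 (4.28 to 4.61). Each was the highest of its group. Dlx3 and Plac1 on that array were not set apart.

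On E12_PC61 array 1 Tead4 was the lowest at 5.92 (8.29 to 8.66 on the others). On E12_PBS array 4 Prl7b1 was the lowest at 10.99 (11.72 to 11.98) and Fgfr2 at 10.95 (11.28 to 11.33). On NP array 5 Tpbpb was the highest at 4.87 (4.33 to 4.40), below background like the other NP arrays.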

How the results depend on the processing

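Over 23 alternatives, 0 of 465 member fold changes changed sign, 440 stayed on the same side of the threshold, 22 passed where the reported value did not and 3 lost their call. Leaving out an array of the third group, or fitting 2 groups alone, cannot alter a fold change, so those values could not change sign. Between E12_PC61 and E12_PBS, the genes called were 0 as reported, 303 with median scaling (0 higher and 303 lower, with a median over all genes of -0.30) and 4027 with array weights (2105 higher and 1922 lower). The members called there were 0 as reported, 6 with median scaling and 7 with array weights. Leaving out 1 array at a time gave 0 to 1529 genes and 0 to 7 members, with every member call coming without E12_PC61 array 4. The 2 genes called without E12_PC61 array 1 were no members. Between E12_PC61 and NP, 2967 genes were called as reported and 1794 with median scaling, which set the median over all genes at -0.15. There 1 member was called as reported, 0 with the series matrix values, without background correction and in the fit of 2 groups (the Plac1 losses), and 1 to 2 with 1 array left out. Between E12_PBS and NP, 7 members were called in each alternative except detection on at least 9 arrays, where Plac1 alone was tested and 1 was called, with a median of 6.57. The median there was 4.00 as reported, 1.88 with the matrix values and 1.98 without background correction. The cause was not tested.

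With the replicate number as a block, 0 genes passed between E12_PC61 and E12_PBS, 4764 between E12_PBS and NP and 2619 between E12_PC61 and NP, and the block changed no call of a member. Same-numbered arrays had correlations of -0.175 to 0.333 between groups, over 0.1 for 4 of 13 pairs, and 4 of 14 arrays correlated best with their own number, so the numbers were not taken to pair the samples. The alternative with the chip as a block was not run. Signal over background limits the dim probes: Syna, Hand1 and Ascl2 could show falls of at most a few fold.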
